A study of Danio rerio with 24 samples.

Results

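The genes described here are those whose level in the liver was higher in every 3-year-old zebrafish than in any 1-year-old zebrafish of the same series. They were chosen by these measured levels. CPM is the count of a gene as a share of the total count of its library, on the usual counts-per-library-size scale, and the gap of a gene was the lowest log2(CPM + 1) among the 6 fish aged 3 years minus the highest among the 18 fish aged 1 year. Of 32105 gene rows, 26622 had a count in at least 1 fish, and 21 had a gap above 0, which is 0.0789% of the rows with a count. The rule called for the 60 highest gaps, but the next 5877 rows were tied at a gap of exactly 0. Of these, 5483 had no count in any fish and 394 had counts in some 3-year fish only. The 39 remaining places could not be filled without an arbitrary choice, and the 21 genes above 0 were taken as the members. In the opposite direction, 53 genes were lower in every 3-year fish, or 0.199%. The age contrast chose the 21 genes, so their age differences are given as a description, with no test.

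Liver RNA of 24 male fish was sequenced, with 1 library for each fish. The 6 older fish were 3 years old, of the strain AB JxTu Tg(flk:mCherry), and labelled with 37.5 nM rotenone. The 1-year fish were AB JxTu, with 9 labelled with 37.5 nM and 9 with 3.75 nM rotenone. Rotenone inhibits mitochondrial complex I, and no fish is labelled as untreated, so all levels are levels under rotenone. Age and the transgenic line cannot be told apart, because all 3-year fish and no 1-year fish carried the transgene. The 3.75 nM fish were in a count table of their own, so dose and table cannot be told apart either. Fish numbers ran from 163 to 181 (the lower number series, with 2 fish aged 3 years, 4 aged 1 year at 37.5 nM and 4 at 3.75 nM) and from 189 to 202 (the upper number series, with 4, 5 and 5). What separated the series is not given in the labels.

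Total counts ranged from 24644663 to 45297644 per library, with medians of 37919986 in 3-year fish, 34871346 in 1-year fish at 37.5 nM and 30947554 in 1-year fish at 3.75 nM. The hepatocyte gene fabp10a, a liver fatty acid binding protein, had a median of 14461 CPM in 3-year fish, against 14481 CPM in 1-year fish at 37.5 nM and 13826 CPM at 3.75 nM. An intestine score was the mean log2(CPM + 1) of the intestine markers minus its median over the fish. In 4 of the 24 fish, none of them aged 3 years, it was above a cut of 2. Their scores were 3.02 to 4.55, and 1-year fish 192 lay just under the cut at 1.82. The transgene is named after flk, an older name of kdrl, a VEGF receptor of blood vessels. Endogenous kdrl had medians of 96.7 CPM in 3-year fish, 85.5 CPM in 1-year fish at 37.5 nM and 94.9 CPM at 3.75 nM, and its age difference did not pass the test (log2 change 0.15 ± 0.14, edgeR adjusted p = 0.599).

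Some of the 21 genes have no known role given here, and shared pathways were not tested. Those with known roles include surface and secreted proteins that guide cell contacts, enzymes and scaffolds of membrane phosphoinositides and vesicle traffic, and proteins of mitochondria. The liver is built mainly of hepatocytes, which carry out sulfur amino acid breakdown and depend on mitochondria, while vessels, nerve endings, stellate cells and blood cells add their own messages to a whole-liver library. In such libraries more cells of a type and more RNA per cell cannot be told apart. Of the 21 members, 19 had a symbol and 2 were known by identifier alone, and 4 (TENM2, ITM2C, PHF21A and mtmr3) shared their symbol with another gene row.

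The separation was wide for a few genes and narrow for most. The ratio of the 3-year median to the 1-year median was at least 1.33 and had a median of 2.74. It was 4 or more in 6 members, from 2 to 4 in 6, and under 2 in 8, and 1 member had a 1-year median of 0. Those at 4 or more include TBKBP1 and DTX1, whose ratios of 4.41 and 13.7 rest on few reads. Just inside the limit were TTC7A, mffb and capn1a, with gaps of 0.0051, 0.0050 and 0.0041 on the log2(CPM + 1) scale. Just outside were si:dkey-246g23.4 with a gap of -0.0010, znf992 with -0.0038 and si:dkeyp-92c5.2 with -0.0071. In si:dkey-246g23.4, 5 of the 6 older fish were above all 1-year fish. Across the genome 128 genes had 5 older fish above all 1-year fish and 267 had 4. With TMM scaling of library sizes, 40 genes had a gap above 0. They included all 8 members with the largest gaps and 14 of the 21 members. The 7 that then overlapped were zgc:113336, si:ch211-236p5.2, PHF21A, ENSDARG00000096948, SUOX, zgc:194209 and TTC7A.

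**Figure D1:**
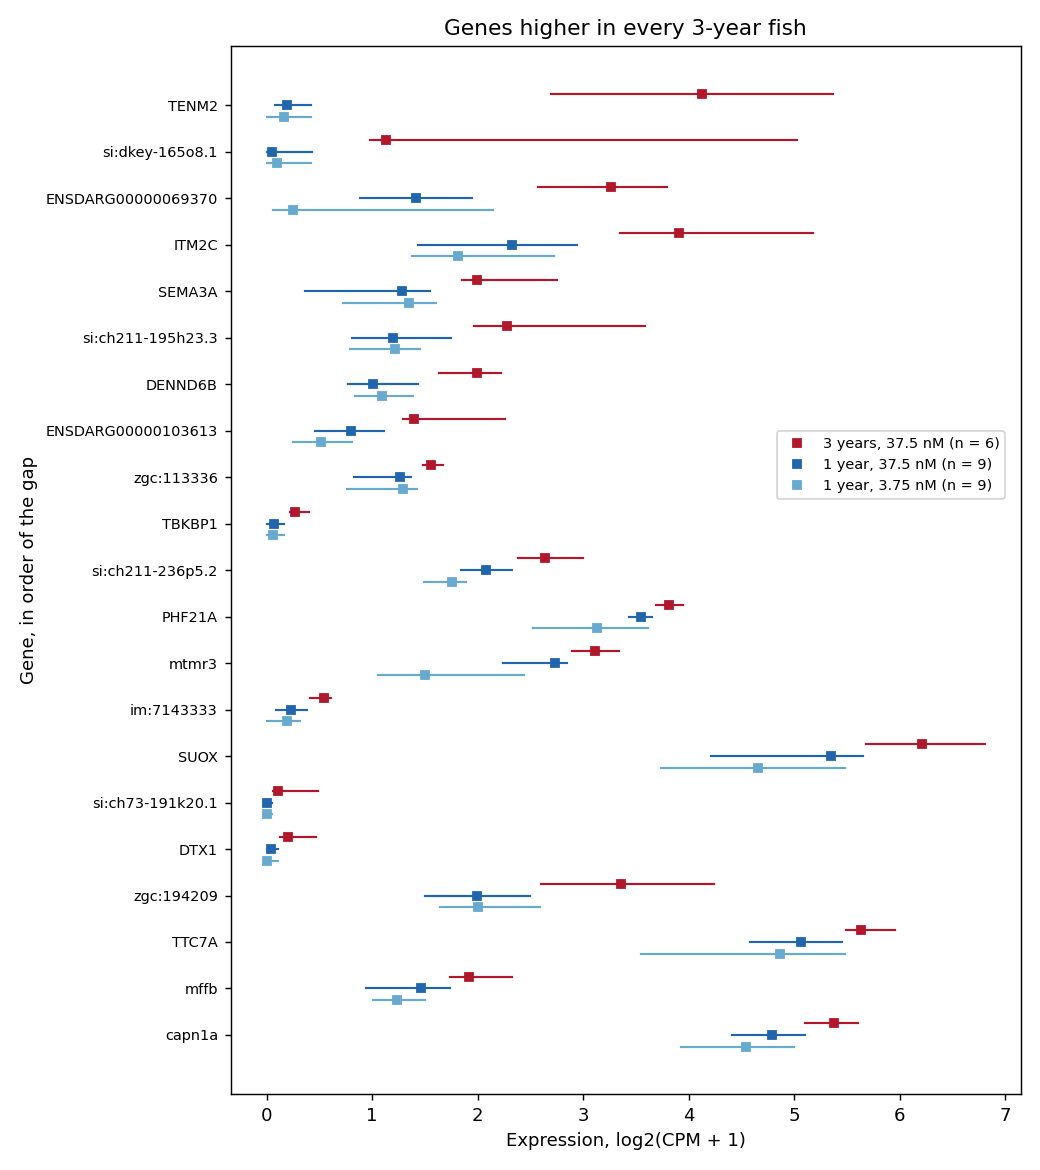
Expression of the 21 genes on the log2(CPM + 1) scale (x axis), 1 gene per row in order of the gap, with a line from the lowest to the highest fish and a square at the median of each group. TENM2 stands far to the right of both 1-year groups, with a gap of 2.27, while the last 3 genes have gaps of 0.0051 or less.

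TENM2, a cell surface protein, held the widest separation, and it is described first with the other surface and secreted proteins. The gene TENM2 (ENSDARG00000011171) encodes a teneurin, a large transmembrane protein known in mammals for binding latrophilins across synapses. Its lowest, median and highest levels were 5.48, 16.6 and 40.2 CPM in 3-year fish, against 0.0545, 0.143 and 0.336 CPM in 1-year fish at 37.5 nM and 0, 0.123 and 0.343 CPM at 3.75 nM. The lowest older fish thus stood 15.9-fold above the highest 1-year fish, and the 3-year libraries held 240 to 1697 reads of the gene, against at most 11 in any 1-year library. Fish 196 and 197 had the highest levels, and the log2 change between 3-year and 1-year fish at 37.5 nM was 6.70 ± 0.50 (SE). The other row with the symbol TENM2 (ENSDARG00000037122) showed no such split. Its median was 0.180 CPM in 3-year fish, against 0.0689 CPM in 1-year fish at 37.5 nM and 0.228 CPM at 3.75 nM. The list of teneurins and latrophilin partners had 8 tested genes other than TENM2, and 0 were called in the age comparison, where edgeR called 1.72% of all genes tested, 0.897% as higher and 0.823% as lower. Their median log2 change was -0.05, against 0.00 over all genes.

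ITM2C (ENSDARG00000039650) encodes a small membrane protein that in mammals binds the amyloid precursor protein. It ranged over 9.20, 14.6 and 35.3 CPM (lowest, median, highest) in 3-year fish, against 1.70, 4.01 and 6.68 CPM in 1-year fish at 37.5 nM and 1.60, 2.51 and 5.60 CPM at 3.75 nM. Fish 197 and 178 were the highest of the older fish, and the log2 change was 2.1 ± 0.36 (SE). The second ITM2C row (ENSDARG00000043448) had a log2 change of 1.01 ± 0.50 that did not pass the test (edgeR adjusted p = 0.288). In the list of BRI2 family and amyloid processing genes, 0 of 15 other tested genes were called.

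SEMA3A (ENSDARG00000042210) encodes a secreted semaphorin that repels growing axons and acts on vessels through neuropilins and plexins. Levels of 2.62, 2.99 and 5.74 CPM (lowest, median, highest) were found in 3-year fish, against 0.287, 1.43 and 1.92 CPM in 1-year fish at 37.5 nM and 0.653, 1.55 and 2.04 CPM at 3.75 nM. Fish 194 and 196 lay above the other 4 older fish. The log2 change was 1.58 ± 0.39 (SE). Its co-orthologue sema3aa gave a log2 change of 0.35 ± 0.32 (edgeR adjusted p = 0.592). Of the 15 other tested genes of class 3 semaphorins, neuropilins and plexins, 1 was called higher and 0 lower. That gene was NRP2 (ENSDARG00000096546), a neuropilin receptor, at 1.23, 4.60 and 11.4 CPM in 3-year fish, against 0.143, 0.794 and 1.33 CPM in 1-year fish at 37.5 nM and 0.378, 0.690 and 1.70 CPM at 3.75 nM. It rose by a log2 change of 2.77 ± 0.44 (edgeR adjusted p = 0.00573), and 5 of the 6 older fish were above all 1-year fish at 37.5 nM. The call held in all 15 fits that left out 1 fish.

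**Figure D2:**
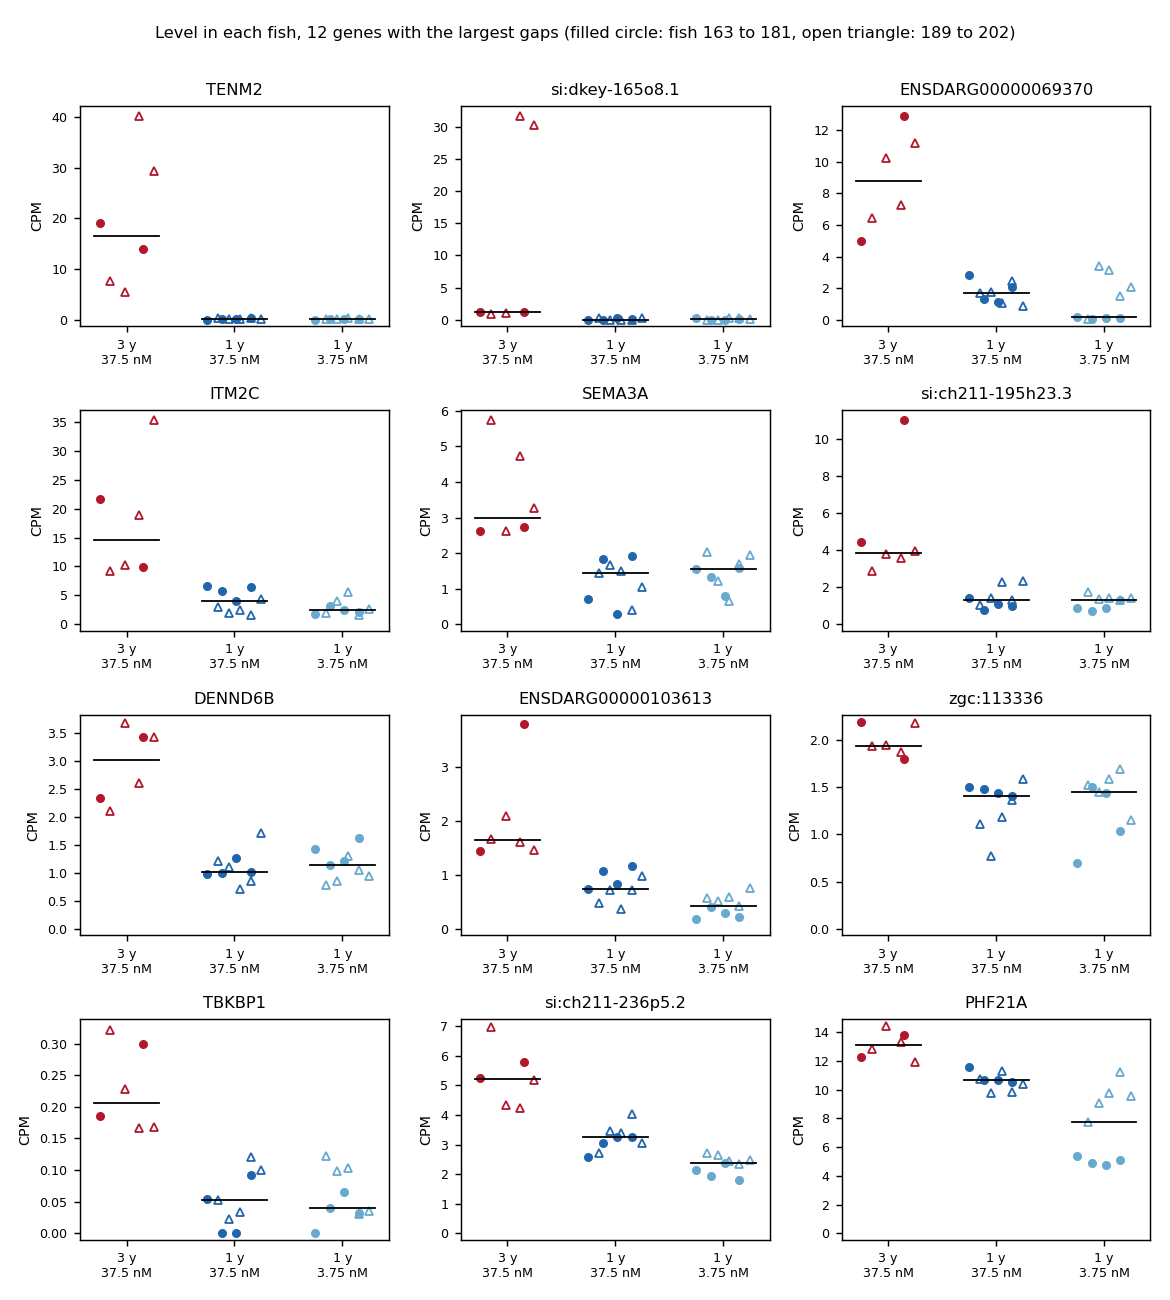
CPM of the 12 genes with the largest gaps in each fish (y axis), in 3-year fish at 37.5 nM, 1-year fish at 37.5 nM and 1-year fish at 3.75 nM, with filled circles for fish 163 to 181, open triangles for fish 189 to 202 and a bar at the median. For si:dkey-165o8.1, fish 197 and 196 lie at 30.2 and 31.7 CPM and the other 4 older fish between 0.967 and 1.23 CPM.

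Vesicle traffic and phosphoinositide genes formed the next set by role. DENND6B encodes a DENN domain protein, a family that activates Rab GTPases of vesicle traffic. It had 2.11, 3.01 and 3.67 CPM in 3-year fish, against 0.711, 1.01 and 1.71 CPM in 1-year fish at 37.5 nM and 0.787, 1.14 and 1.62 CPM at 3.75 nM. Its log2 change was 1.4 ± 0.20 (SE), and its older fish spread over 1.74-fold. The list of Rab14 and DENN family genes had 14 other tested genes and 0 calls.

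The gene mtmr3 (ENSDARG00000098201) encodes a myotubularin phosphatase that removes a phosphate from phosphoinositides of endosomes and autophagosomes. It stood at 6.42, 7.64 and 9.13 CPM in 3-year fish, against 3.73, 5.65 and 6.21 CPM in 1-year fish at 37.5 nM and 1.08, 1.83 and 4.42 CPM at 3.75 nM. The log2 change of 0.48 ± 0.13 (SE) was among the small ones of the set. TTC7A encodes a scaffold of the PI4KA lipid kinase complex at the plasma membrane. It had 43.9, 48.5 and 61.05 CPM in 3-year fish, against 22.9, 32.4 and 42.7 CPM in 1-year fish at 37.5 nM and 10.7, 28.1 and 43.7 CPM at 3.75 nM, so that the highest 1-year fish nearly reached the lowest older fish. Among the other tested genes, 0 of 16 myotubularins and 0 of 11 genes of the PI4KA complex were called.

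Both mitochondrial members have a textbook role. SUOX encodes sulfite oxidase, the molybdenum enzyme of the space between the mitochondrial membranes that completes sulfur amino acid breakdown. It had 50.2, 73.7 and 110.7 CPM in 3-year fish, against 17.5, 39.8 and 49.3 CPM in 1-year fish at 37.5 nM and 12.3, 24.3 and 43.7 CPM at 3.75 nM. Fish 197 and 196 were the highest, as they were in 3 members in all, TENM2, si:dkey-165o8.1 and SUOX. The log2 change of SUOX was 1.06 ± 0.24 (SE), and 0.75 without these 2 fish. In the list of molybdenum cofactor and sulfur amino acid breakdown, 0 of 22 other tested genes were called, with a median log2 change of 0.04. The gene mffb encodes mitochondrial fission factor, which recruits the dynamin-related GTPase that divides mitochondria. It had a median of 2.77 CPM in 3-year fish, against 1.76 CPM in 1-year fish at 37.5 nM and 1.35 CPM at 3.75 nM, with a log2 change of 0.82 ± 0.16 (SE). Its paralogue mffa gave -0.05 ± 0.10 and was not called, and 0 of 14 other fission and fusion genes were called.

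Among regulators of proteins and chromatin, PHF21A (ENSDARG00000021378) encodes a reader of unmethylated histone H3 lysine in the CoREST and LSD1 complex. It had 11.9, 13.1 and 14.4 CPM in 3-year fish, against 9.80, 10.7 and 11.6 CPM in 1-year fish at 37.5 nM and 4.77, 7.77 and 11.2 CPM at 3.75 nM. Its log2 change of 0.29 ± 0.10 (SE) was the smallest of the 18 members that passed the filter on low counts, and its older fish spread over 1.21-fold. The gene capn1a, which encodes a catalytic subunit of a calcium-dependent calpain protease, had a median of 40.6 CPM in 3-year fish, against 26.7 CPM in 1-year fish at 37.5 nM and 22.3 CPM at 3.75 nM. Of 11 other tested genes of calpains and calpastatin, 1 was called higher and 0 lower. This was CAPN10, another calpain, which had 4.13, 4.65 and 7.41 CPM in 3-year fish, against 2.07, 2.81 and 3.97 CPM in 1-year fish at 37.5 nM and 2.12, 3.65 and 4.52 CPM at 3.75 nM. It rose by a log2 change of 0.77 ± 0.17 (edgeR adjusted p = 0.0291), but 6 of the 15 fits with 1 fish fewer did not call it, and its adjusted p reached 0.0681 without fish 196.

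TBKBP1 encodes an adaptor of the kinase TBK1, which acts in innate immune signalling, and DTX1 encodes deltex, a ubiquitin ligase that modifies Notch signalling. Both rested on few reads. TBKBP1 had 0.166, 0.207 and 0.322 CPM in 3-year fish, against 0, 0.0530 and 0.121 CPM in 1-year fish at 37.5 nM and 0, 0.0406 and 0.123 CPM at 3.75 nM, which came from 6 to 11 reads in each 3-year library and at most 5 in any 1-year library. DTX1 came from 3 to 13 reads in each 3-year library and at most 3 in any 1-year library, and si:ch73-191k20.1 from 2 to 17, against at most 1. These 3 genes did not pass the filter on low counts in the age fit, and at this depth the size of their difference cannot be given. The 8 other tested TBK1 adaptor genes and the 19 of deltex and Notch signalling had 0 calls.

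Of the members with no known role given here, si:dkey-165o8.1 was the most uneven. It had 0.967, 1.19 and 31.7 CPM (lowest, median, highest) in 3-year fish, against 0, 0.0344 and 0.345 CPM in 1-year fish at 37.5 nM and 0, 0.0719 and 0.343 CPM at 3.75 nM. Fish 196 and 197 alone carried the high level, so its log2 change of 6.47 ± 1.07 (SE) became 3.16 without them, while that of TENM2 became 5.93. ENSDARG00000069370 had 4.96, 8.75 and 12.9 CPM in 3-year fish, against 0.853, 1.67 and 2.86 CPM in 1-year fish at 37.5 nM and 0.0406, 0.190 and 3.41 CPM at 3.75 nM. The older fish lay above both 1-year groups, and the 3.75 nM fish were split, as described with the dose results.

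The gene si:ch211-195h23.3 had 2.90, 3.86 and 11.03 CPM in 3-year fish, against 0.758, 1.302 and 2.36 CPM in 1-year fish at 37.5 nM and 0.730, 1.32 and 1.75 CPM at 3.75 nM. ENSDARG00000103613 had 1.45, 1.64 and 3.79 CPM in 3-year fish, against 0.372, 0.736 and 1.16 CPM in 1-year fish at 37.5 nM and 0.190, 0.430 and 0.755 CPM at 3.75 nM. Fish 181 was the highest older fish for both. For si:ch211-236p5.2, levels were 4.22, 5.21 and 6.97 CPM in 3-year fish, against 2.59, 3.24 and 4.03 CPM in 1-year fish at 37.5 nM and 1.81, 2.38 and 2.70 CPM at 3.75 nM. Here the 3 groups formed a step, with 8 of the 9 fish at 37.5 nM above all fish at 3.75 nM. The levels of zgc:113336 were 1.79, 1.94 and 2.19 CPM in 3-year fish, against 0.773, 1.404 and 1.58 CPM in 1-year fish at 37.5 nM and 0.696, 1.45 and 1.69 CPM at 3.75 nM. Medians of zgc:194209 were 9.27 CPM in 3-year fish, 2.98 CPM in 1-year fish at 37.5 nM and 3.02 CPM at 3.75 nM, and those of ENSDARG00000096948, a gene with a clone name as its symbol, were 0.459, 0.172 and 0.147 CPM in the same groups. Log2 changes between 3-year and 1-year fish at 37.5 nM were 2.32 ± 0.30 for ENSDARG00000069370, 1.79 ± 0.31 for zgc:194209, 0.70 ± 0.15 for si:ch211-236p5.2 and 0.60 ± 0.15 for zgc:113336 (SE).

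The highest older fish was not the same from gene to gene. Fish 194 was the highest for 6 members and the lowest for 7, fish 181 and fish 196 were each the highest for 4, and fish 178 was the highest for 1. Within the 3-year fish, upper against lower number series (4 against 2 fish) gave 0 calls among the 20 members tested, with 1 at an unadjusted p under 0.05 by edgeR, si:ch211-195h23.3. The background of that test was 1 call among 17016 genes, a lower one, or 0.00588%, with 1224 genes at an unadjusted p under 0.05. DESeq2 called 220 genes there but 0 members.

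Rotenone dose was compared between the 1-year groups, but the direction of the members' dose changes is not independent of the rule. All 3-year fish were at 37.5 nM and had to lie above every fish at 3.75 nM. Genes higher at 3.75 nM were thus less likely to become members. Gaps above 0 numbered 57 against the 1-year fish at 37.5 nM alone, and 21 against all 18. Adding fish of any dose could only lower a gap, so this fall does not show a direction of dose. The shares over all genes given beside the members were not selected by the rule. Of the 15 members tested between 37.5 and 3.75 nM (n = 9 each), 3 rose at 37.5 nM and 0 fell, which is 20% of them, beside 11.4% of all genes called in either direction, 3.19% called higher and 8.19% lower. The median log2 change was 0.33 over the members and 0.03 over all genes tested, and 13 of the 15 were above 0, as were 52.2% of all genes. The 3 genes were si:ch211-236p5.2 (log2 change 0.54 ± 0.14, edgeR adjusted p = 0.0183), mtmr3 (1.07 ± 0.30, adjusted p = 0.0283) and ENSDARG00000103613 (0.90 ± 0.29, adjusted p = 0.0492). For mtmr3, 8 of the 9 fish at 37.5 nM were above all fish at 3.75 nM, and for ENSDARG00000103613 4 were. The call of si:ch211-236p5.2 held in all 18 fits that left out 1 fish. That of mtmr3 was lost in 4 of them, with an adjusted p of up to 0.0585 without fish 166, and that of ENSDARG00000103613 in 14, with up to 0.0969 without fish 167. Without the 4 fish above the cut on the intestine score, 0 members and 181 genes were called.

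The number series differed in this respect. In the upper series alone 0 of 15 members were called, beside 0% of all genes, and the members' median log2 change was 0.18. In the lower series alone 9 of 15 were called, all higher at 37.5 nM, and the median was 0.73. Of all genes, 34.8% were called there in either direction and 17.3% higher. The rule favoured this direction in the members, because it kept the fish at 3.75 nM below 3-year fish at 37.5 nM. The difference itself, the dose change in the upper minus that in the lower series, was called for 2 of 15 members, beside 6.33% of all genes in either direction and 4.57% lower. For ENSDARG00000069370 it was -4.26 ± 1.04 (edgeR adjusted p = 0.0239), from a dose change of -0.26 ± 0.72 in the upper series and 3.95 ± 0.51 in the lower series. At 3.75 nM the lower series held 0.0406 to 0.190 CPM of this gene, while the upper series spread over 0.0737 to 3.41 CPM. In the upper series fish 189 alone, with 3 reads, lay as low as the lower series. The next lowest was fish 192 at 1.47 CPM. For PHF21A it was -1.05 ± 0.25 (adjusted p = 0.0209), from 0.21 ± 0.18 in the upper series and 1.21 ± 0.14 in the lower series. All 4 lower-series fish at 3.75 nM, at 4.77 to 5.38 CPM, lay below the other 14 fish aged 1 year, at 7.77 to 11.6 CPM. Leaving out 1 fish lost the call of ENSDARG00000069370 in 3 of 18 fits, with an adjusted p of up to 0.0658 without fish 166, and that of PHF21A in 5, with up to 0.0766 without the same fish.

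**Figure D3:**
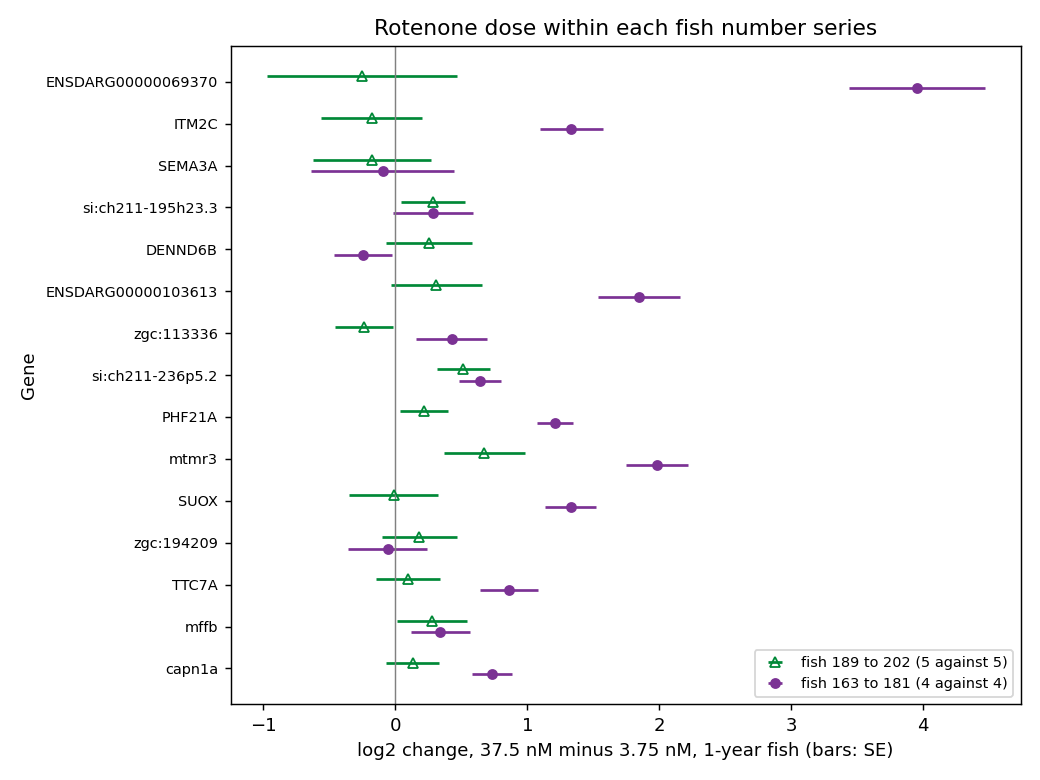
Log2 change between 37.5 and 3.75 nM in 1-year fish (x axis, bars are SE) for the 15 tested genes, with fish 189 to 202 as open triangles and fish 163 to 181 as filled circles. ENSDARG00000069370 has the widest distance between the series, with -0.26 in the upper and 3.95 in the lower series.

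ITM2C, SUOX, mtmr3 and ENSDARG00000103613 had a similar order of values without passing the test of the difference. ITM2C changed by -0.18 ± 0.38 in the upper series, where it was not called, and rose by 1.33 ± 0.24 in the lower series, and the difference had an adjusted p of 0.0694 by edgeR. For SUOX the dose changes were -0.01 ± 0.34 in the upper and 1.33 ± 0.20 in the lower series, and the difference had an adjusted p of 0.0801 by edgeR. For mtmr3, called for dose over both series, they were 0.67 ± 0.31 and 1.98 ± 0.235, with an adjusted p of 0.0592 by edgeR. For ENSDARG00000103613, also called over both, they were 0.31 ± 0.35 and 1.85 ± 0.31, with an adjusted p of 0.0609 by edgeR. Neither was called in the upper series alone. The endoplasmic reticulum chaperone HSPA5 had 31.9, 76.8 and 126 CPM (lowest, median, highest) in 1-year fish at 37.5 nM, against 93.0, 1009 and 1537 CPM at 3.75 nM, and its part in these dose differences was not tested.

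Between the number series of the 1-year fish, upper minus lower with dose as a covariate, 1 of 15 members was called, beside 12% of all genes in either direction, 4.16% higher and 7.86% lower. This was TTC7A, with a log2 change of 0.68 ± 0.20 (edgeR adjusted p = 0.041). In the upper series its median was 35.5 CPM at 37.5 nM and 33.2 CPM at 3.75 nM, against 28.0 and 15.6 CPM in the lower series. With 1 fish fewer, 12 of 18 fits did not call it, and the adjusted p reached 0.0902 without fish 163.

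Genome neighbours were read from the RefSeq annotation of GRCz12tu by symbol, which placed 13 of the 21 members. None of the 13 had another member within 10 gene positions. Of 164 flanking genes with a count row, 120 were tested for age, and 5 were higher and 0 lower. That is 4.17% higher, beside 0.897% of all genes, and the 5 lay beside 3 of the 13 members. The nearest were 1 position away. The gene si:ch211-236p5.3, next to si:ch211-236p5.2, had 0.274, 6.26 and 10.5 CPM in 3-year fish, against 0.164, 0.344 and 0.636 CPM in 1-year fish at 37.5 nM and 0.0687, 0.270 and 0.934 CPM at 3.75 nM. It rose by a log2 change of 3.79 ± 0.51 (edgeR adjusted p = 0.0036), with 5 of 6 older fish above all 1-year fish at 37.5 nM. Whether the counting used strand is not stated, so reads shared by overlapping neighbours could not be told apart.

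Beside TBKBP1, tbx21, which encodes a transcription factor of T and natural killer cells, had 0.278, 0.857 and 1.73 CPM in 3-year fish, against 0.0662, 0.182 and 0.440 CPM in 1-year fish at 37.5 nM and 0.0614, 0.129 and 0.664 CPM at 3.75 nM. It rose by a log2 change of 2.13 ± 0.43 (edgeR adjusted p = 0.0232). With 1 fish fewer, 2 of 15 fits did not call it, and the adjusted p reached 0.0619 without fish 196. Farther along, CDK5RAP3 had 12, 14.7 and 20.2 CPM in 3-year fish, against 7.93, 11.04 and 13.8 CPM in 1-year fish at 37.5 nM and 10.5, 26.5 and 43.9 CPM at 3.75 nM. It rose by 0.52 ± 0.12 against the 1-year fish at 37.5 nM (edgeR adjusted p = 0.0475, lost in 14 of 15 fits, up to 0.0948 without fish 178), while the median of the fish at 3.75 nM lay above that of the 3-year fish. The neighbouring si:ch211-194k22.8 had 3.47, 5.51 and 8.01 CPM in 3-year fish, against 1.59, 3.27 and 3.96 CPM in 1-year fish at 37.5 nM and 2.44, 3.39 and 5.19 CPM at 3.75 nM. It rose by 0.84 ± 0.17 (edgeR adjusted p = 0.0236, lost in 4 fits, up to 0.0566 without fish 196).

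The T cell list holds tbx21 itself. Of its 28 tested genes 2 were called higher, tbx21 and the granzyme gzmk, 0 were called lower and 26 were not called, with a median log2 change of 0.96, against 0.00 over all genes. The summed level of the 40 T cell genes was 23.7 to 126 CPM in 3-year fish, against 10.4 to 88.4 CPM in 1-year fish at 37.5 nM and 8.83 to 116 CPM at 3.75 nM, so the groups overlapped, and 1 of the 40 was at 0 in all 3-year fish. The neuron list, read beside TENM2 and SEMA3A, summed to 19.0 to 85.4 CPM in 3-year fish, against 47.3 to 87.6 CPM in 1-year fish at 37.5 nM and 46.8 to 339 CPM at 3.75 nM, and 0 of its 9 tested genes were called, with a median log2 change of -0.996. Other cell lists with 0 calls also had medians far below 0, exocrine pancreas at -0.94 and intestine at -4.05. Of the 31 neuron genes 2 were at 0 in all 3-year fish. The part of these cell types in the members' levels was not tested.

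**Figure D4:**
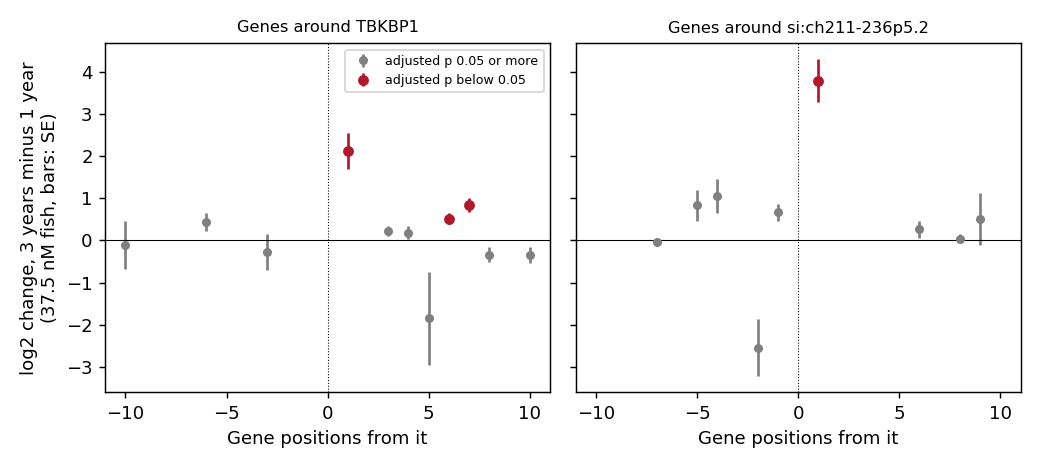
Log2 change between 3-year and 1-year fish at 37.5 nM (y axis, bars are SE) of the tested genes within 10 gene positions (x axis) of TBKBP1 and si:ch211-236p5.2, with genes below an adjusted p of 0.05 in red. The highest point, at 3.79, is si:ch211-236p5.3, the immediate neighbour of si:ch211-236p5.2.

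Over the 24 lists of pathways and cell types, 665 tested entries other than members gave 6 higher and 6 lower calls in the age comparison, and 16 lists had 0 calls. Besides the T cell list, p53 and senescence held 3 lower calls among 30 tested genes, and xenobiotic metabolism 2 higher among 77. The endothelial, interferon response, and adhesion and synapse lists had 1 lower call each. The collagen and matrix enzyme list and the strain-variable immune list had 1 higher call each. Over the 12 lists of the members' partners, 161 tested entries gave 2 higher calls, NRP2 and CAPN10, and 0 lower, beside the same shares over all genes.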

How the data were processed

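Liver RNA was prepared with the TruSeq RNA v2 kit, per the labels' protocols. The authors deposited raw counts per gene in 2 tables, made with CASAVA 1.8.2, STAR 2.4.1d, featureCounts 1.4.6-p4 and GRCz10, per the submitters' processing notes. The annotation and strand setting are not given in the sources used here. They also deposited values named RPKM, treated here as a score with no fixed unit and used only as an alternative. Compared between 2 sample columns, the ratio of count to value followed the row number with a period of 44 rows (SD 9.46e-05 on the log2 scale in 3926 genes with 300 or more counts, against at least 0.193 at other periods), so they are not RPKM as named.

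The tables were joined on gene identifier, and 26269 of 32105 rows had a symbol in the reference table. All 24 sample columns were used. CPM used column totals, and the pseudocount of the gap was 1. Log2 changes came from edgeR 4.0.16 (TMM, filterByExpr, two-sided quasi-likelihood F test, Benjamini-Hochberg adjustment over all genes tested, threshold 0.05), and SE was taken as the absolute change over the square root of the F statistic. The age fit used fish at 37.5 nM only (6 against 9). Alternatives are given in the closing section and include DESeq2 1.42.0. The script was tested on simulated counts. These had the same spread between fish for every gene, smaller than in the main fits, so they do not give the error rate in these data. R 4.3.3 and Python 3.11.15 were used.

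The members, gene lists and tests were chosen with earlier results of these data known, and the partner lists were written once the members were known. Levels in each group were given for the 12 members with the largest gap, members called in a dose or series test and members of a list, and those of the remaining members were added after their values were seen. Non-member genes are named where a partner list, the T cell list or the flanking genes held a call. Called genes of the other lists are not named. The result of 1 flanking gene is not reported here. Each library came from its own fish. Replicate pairs within a group differed by a chi-square of at least 81.4 per gene, so no library repeated another of its group within counting noise. Libraries of different groups were not compared in this way. Depth limits genes of a few reads.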

Additional observations from a re-analysis of the deposited data

Results flagged for a closer look

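In 63 groups of 6 or 9 fish tested for a fish far from the others, 2 had one. Chance gives about 1 in 20 in groups that were not selected. The rule used these same levels and bounded the lowest 3-year and the highest 1-year fish, so the count cannot be set against that rate. Both flagged values were those of fish 181 among the 3-year fish. Its level of si:ch211-195h23.3 was 11.03 CPM, against a next highest of 4.44 CPM, and its level of ENSDARG00000103613 was 3.788 CPM, against a next highest of 2.099 CPM. Without this fish the log2 changes between 3-year and 1-year fish at 37.5 nM were 1.44 for si:ch211-195h23.3 and 1.1 for ENSDARG00000103613, against 1.77 and 1.32 with it.

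The dose change of 2 genes differed between the number series of the 1-year fish in a test of the difference, upper minus lower. It was -4.261 on the log2 scale for ENSDARG00000069370 and -1.047 for PHF21A. What separated the series is not given in the labels.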

How the results depend on the processing

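The age changes of the 18 members fitted kept their sign under the alternatives run for them. The rule had placed every older fish above every 1-year fish in these genes. It left little room for another sign, so the kept sign of the age changes does not show stability. The dose, series and interaction changes called over all 1-year fish also kept their sign under the alternatives run for them. ENSDARG00000069370 and ITM2C, called for dose in the lower series alone, had dose changes of -0.26 and -0.18 in the upper series, against 3.95 and 1.33 in the lower series. The gaps of 7 members fell below 0 with TMM scaling. Gaps above 0 were 21 with pseudocounts of 0.25 and 5 by construction, since a pseudocount cannot change the sign of a gap. They numbered 40 with TMM scaling. With fewer fish to separate, they numbered 57 without the 3.75 nM table and 156 in the upper number series alone. Also with fewer fish, they were 39 without the 4 fish with intestine markers and 55 without fish 196 and 197. Leaving out 1 fish gave 21 to 81, with 81 without fish 195, 49 without fish 178, 36 without fish 194 and 32 without fish 202, and all 21 members stayed above 0 by construction, since leaving out a fish cannot lower a gap. The deposited RPKM-named values kept 9 members.

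Dose calls numbered 1760 genes (1131 without a filter, 2706 by DESeq2, 5291 in the lower and 0 in the upper series, 181 without the intestine-marker fish, 909 to 2518 leaving out 1 fish, lowest without fish 167). Dose calls among members were 3, against 9 in the lower series, 0 in the upper series, 0 without the intestine-marker fish and 1 to 4 leaving out 1 fish. Series calls in 1-year fish were 1961 (858 by column totals, 1078 without a filter, 3527 by DESeq2, 986 to 2855 leaving out 1 fish), with 1 member (0 without a filter, 3 by DESeq2, 0 to 2 leaving out 1 fish). In 3-year fish they were 1 (0 by column totals, 220 by DESeq2, 0 to 1 leaving out 1 fish), and 0 members leaving out any fish.

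Age calls were 278 (1196 by DESeq2, 540 with series as a covariate, 41 without fish 196 and 197, 30 in the upper series, 115 to 559 leaving out 1 fish, lowest without fish 196 and highest without fish 195). Interaction calls were 1089 (680 without a filter, 2048 by DESeq2, 516 to 2048 leaving out 1 fish), with 2 members (6 by DESeq2, 0 to 5 leaving out 1 fish). The cause of these differences was not tested. The dose and age fits within 1 number series, those without named fish and the interaction were chosen after seeing the data. No paired analysis was possible because every fish has its own number and none is shared between groups.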

Other observations

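The second row with the symbol PHF21A (ENSDARG00000006878) had a lowest, median and highest level of 0, 0.0902 and 11.6 CPM in 3-year fish, against 0.0287, 0.103 and 0.474 CPM in 1-year fish at 37.5 nM and 0.0316, 0.108 and 0.639 CPM at 3.75 nM. The highest older fish thus stood far above a median that was close to that of the 1-year fish. The second row with the symbol mtmr3 (ENSDARG00000093364) and tenm2b were at 0 in every fish.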
